A study of Mus musculus with 9 samples.

Results

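Beta-catenin, the DNA-binding LEF/TCF factors that it joins in the nucleus, and a small set of genes known to be switched on by that pair were followed in mouse tumours and in normal skeletal muscle. The set held 10 named genes, and a probe set belonged to it if its only annotated gene symbol was 1 of them. Of the 10 genes, 8 were found, with 21 probe sets among the 30508 on each array: Ctnnb1 (3 probe sets), Lef1 (2), Tcf7l1 (2), Tcf7l2 (3), Axin2 (2), Lgr5 (2), Nkd1 (4) and Tnfrsf19 (3). Levels of Tcf7 and Rnf43 were not analysed here, and these genes enter only the search of promoters. The study hybridised total RNA from whole tissue to Affymetrix arrays, 1 array per sample, from 5 tumours and 4 muscles. The tumours came from mice labelled MYF-5 CRE/SSM2, in which, as the label gives it, Cre is tied to Myf5, a gene of muscle precursors, and their RNA is described as that of SYT-SSX tumours. Synovial sarcoma, a cancer of soft tissue, is known for carrying SYT-SSX, a protein fusion. By their labels, tumour 1 was CC23, tumour 2 CC17-B, tumour 3 CC17-A, tumour 4 SSM5 and tumour 5 SSM4. The label names these as mice, so CC17-A and CC17-B may be tumours of 1 animal. They were counted as 2 of the 5 tumours, and averaging them into 1 sample left 12 of 18 tested probe sets of these genes called higher, against 13 of 19 with both. All muscles were labelled wild type: muscles 1 and 4 came from the hind limb, muscle 2 was intercostal and muscle 3 came from the forelimb, so genotype and tissue differ together. Ages and the number of animals were not given in the labels, so the p-values measure only the spread between these samples, which may be technical.

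Beta-catenin is held low in resting cells by a destruction complex built on the scaffold proteins axin and APC, in which kinases mark it for degradation. When a Wnt ligand binds a Frizzled receptor, beta-catenin accumulates, enters the nucleus and binds LEF1, TCF7, TCF7L1 or TCF7L2, which otherwise hold their target genes with corepressors. Several target genes encode brakes on the same pathway, so they are widely read as a gauge of it. A second pool of beta-catenin links cadherins to the cytoskeleton at cell junctions, and none of these arrays distinguishes protein pools.

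LEF/TCF factors can recognise a core of CTTTGA, and the bases before the known starts of the genes are shown because these factors can act there. Other cores, and sites farther from the starts, were not searched. The 250 bases before each RefSeq start (GRCm38.p6) were searched on both strands for CTTTGA, which reads TCAAAG as its reverse complement. The longer CTTTGAT, which contains the core, was searched in the same way. Of 17 windows of 9 of the genes (all but Lgr5), 2 held the core (11.8%), against 13.8% of all 32851 windows. Those of Axin2 (chr11:108920099-108920348, plus strand) and of the first Lef1 start (chr3:131110047-131110296, plus strand) held none. A window of a start further inside Lef1 (chr3:131156044-131156293, plus strand) held 2, whose first bases lay 180 and 120 bases before the start. A window of Tnfrsf19 (chr14:61037988-61038237, minus strand) held 1, at 201 bases before the start, which also matched the longer motif, found in 3.21% of all windows. Capitals mark the core.
Axin2: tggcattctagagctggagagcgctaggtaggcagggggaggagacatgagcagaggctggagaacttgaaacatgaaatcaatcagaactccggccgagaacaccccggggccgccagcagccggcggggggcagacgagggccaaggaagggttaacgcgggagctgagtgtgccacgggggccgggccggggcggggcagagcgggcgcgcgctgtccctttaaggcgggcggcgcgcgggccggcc
Lef1, first start: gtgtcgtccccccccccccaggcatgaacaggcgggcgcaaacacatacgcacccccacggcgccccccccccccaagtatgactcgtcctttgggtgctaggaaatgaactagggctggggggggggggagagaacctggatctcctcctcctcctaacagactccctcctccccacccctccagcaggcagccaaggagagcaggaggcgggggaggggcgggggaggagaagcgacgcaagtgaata
Lef1, inner start: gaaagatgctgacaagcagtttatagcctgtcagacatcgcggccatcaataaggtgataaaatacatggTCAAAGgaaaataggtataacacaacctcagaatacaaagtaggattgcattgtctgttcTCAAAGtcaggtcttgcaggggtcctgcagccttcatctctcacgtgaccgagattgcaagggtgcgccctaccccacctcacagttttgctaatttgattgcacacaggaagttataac
Tnfrsf19: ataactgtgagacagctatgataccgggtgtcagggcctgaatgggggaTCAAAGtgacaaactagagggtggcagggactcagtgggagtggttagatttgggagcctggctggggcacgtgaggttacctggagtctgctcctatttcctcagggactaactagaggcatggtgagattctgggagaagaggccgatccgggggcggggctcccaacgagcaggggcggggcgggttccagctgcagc
The median GC content of the 17 windows was 64.4% (40.8% to 76.0%), against 52.4% for all windows. The share with the core was near that of all windows, and a match or its absence in so short a stretch says nothing of binding.

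All levels are scaled intensity, the authors' MAS5 signal with each array scaled to a common trimmed mean, and log2 fold changes are mean log2(scaled intensity + 16) in tumours less that in muscle. Each array had a floor at its own 40th percentile, 96.5 to 137 in tumours and 97.0 to 113 in muscle, below which a signal was taken as not above background. A probe set was tested with limma where 4 or more arrays reached the floor, and was called at an adjusted p under 0.05. Of 17433 probe sets tested, 25.7% were called higher and 16.5% lower in tumours, and higher calls were 60.8% of all calls (49.9% with array medians set equal and 79% with ribosomal protein and proteasome genes held level). Of 13 muscle fibre genes, from 1 (tumour 4) to 13 (tumours 2 and 5) were above the floor in the tumours, and all 13 were on every muscle array. Their summed level was 760 to 157280 in tumours and 599119 to 793336 in muscle. The 3-prime to 5-prime ratio of the Actb control probe sets, a measure of RNA integrity, was 12.7 in tumour 1 and 4.54 in tumour 4, against 1.99 to 2.90 in the other tumours and 1.62 to 1.93 in muscle.

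Of the 21 probe sets, 19 were tested, and 13 were called higher, 0 lower and 6 were not called. Of the 13, 6 were at or above the floor on every muscle, 6 on some and 1, of Lef1, on none. The last passed the filter through the tumours alone, where it was high, and the count without it was 12. The 6 at the floor on only some muscles also needed tumour signals to pass the filter. Only the 6 at or above the floor on every muscle would have passed it on the muscles alone. At least 1 probe set of each of the 8 genes rose. Every tumour lay above every muscle for 12 of the 21 probe sets. Of the 19 tested, 11 did so, all of them called, where 21.7% of all tested probe sets showed the same. Those 11 include the Lef1 probe set that was below the floor on every muscle. The 1 not tested, Axin2 1421341_at, was also below the floor on every muscle. With 1 probe set per gene, the one with the highest mean level, 7 of the 8 genes were called higher and Nkd1 was not, against 30.1% higher and 17.9% lower among the 10650 genes tested. Their median log2 fold change was 2.23, where that of all genes was 0.23. Over the 5 scalings tried, 6 to 8 of the genes were called higher, and their median less that of all genes ran from 1.94 to 2.00, while the median of all genes itself ran from 0.04 with array medians set equal to 0.62 with ribosomal protein and proteasome genes held level. In whole tissue, more cells of a type and more RNA per cell cannot be told apart.

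**Figure D1:**
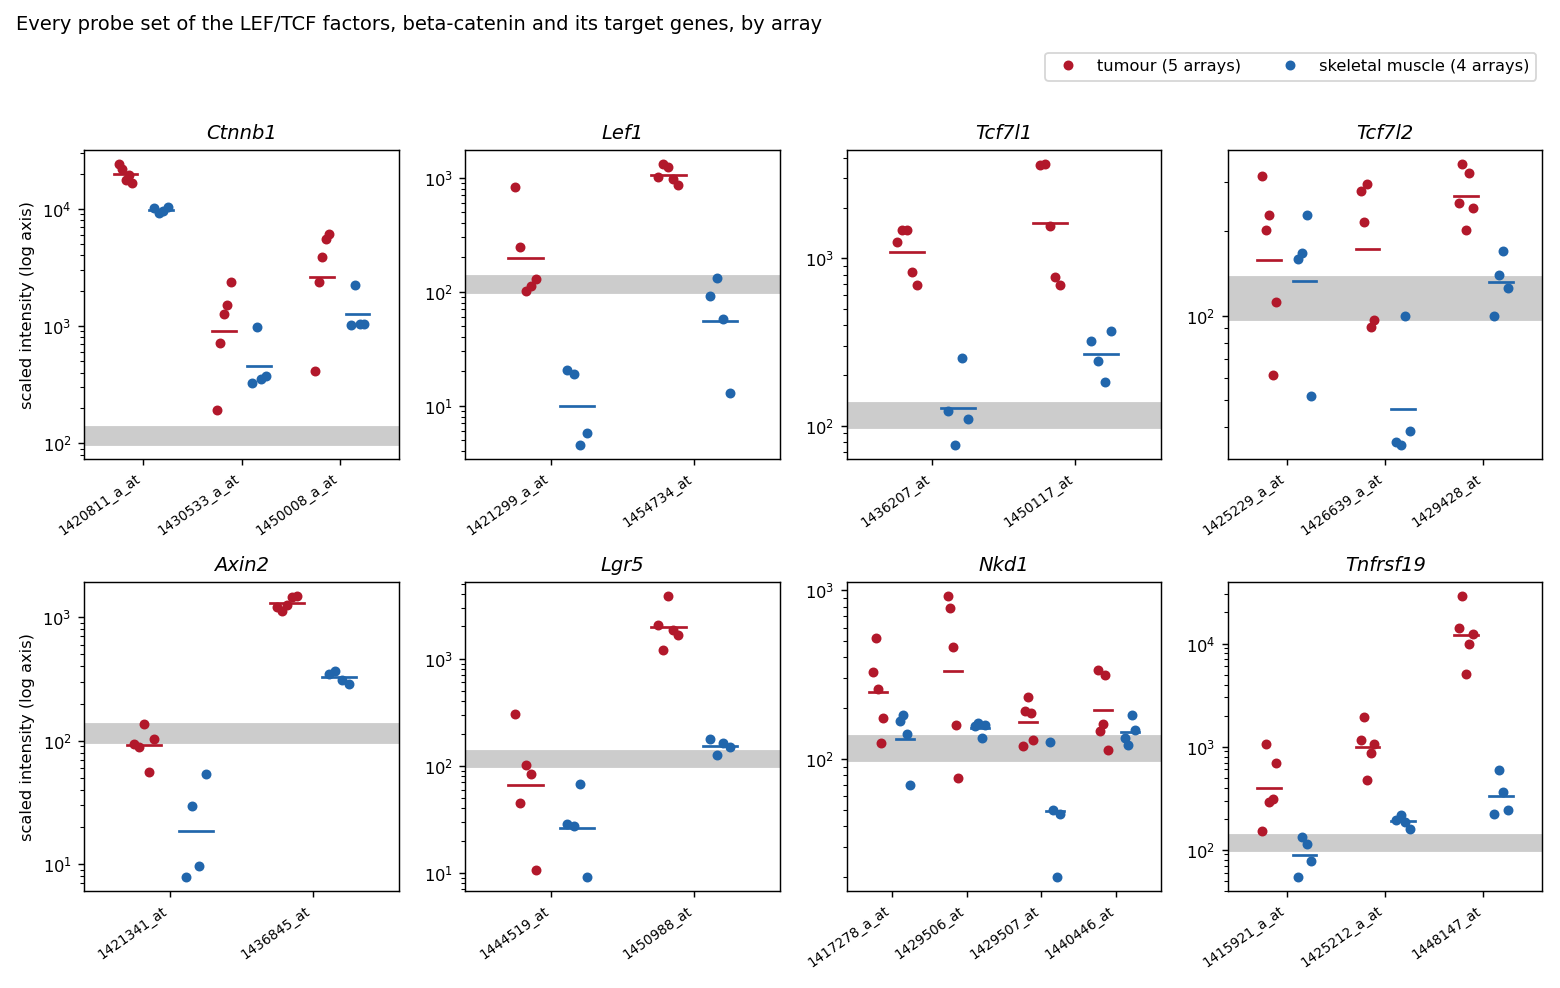
Scaled intensity (log axis) of all 21 probe sets by array, with tumours (red, 5 arrays) left of muscle (blue, 4 arrays), the geometric mean of a group as a bar, and the range of the arrays' floors as a grey band. The groups do not overlap for 12 probe sets, and single probe sets of Lef1, Axin2 and Lgr5 lie largely within or under the band.

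Ctnnb1, which encodes beta-catenin itself, rose in the tumours, by its brightest probe set. 1420811_a_at read 24029, 22032, 17796, 19383 and 16474 in tumours 1 to 5, against 10201, 9212, 9625 and 10409 in muscles 1 to 4. All tumours lay above all muscles, and neither group spread far, with the highest tumour 1.46 times the lowest. Its log2 fold change was 1.003 (SE 0.18, 95% interval 0.60 to 1.41, adjusted p = 0.0012).

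The other Ctnnb1 probe sets ordered the tumours otherwise and were not called. 1450008_a_at, annotated to the same RefSeq transcript as the first, read 411, 2368, 3867, 5496 and 6069 in tumours 1 to 5, against 1023, 2262, 1039 and 1049 in muscles 1 to 4. Tumour 1, the highest by the brightest probe set, was the lowest of all 9 arrays here, and the groups overlapped. The log2 fold change was 1.06 (SE 0.67, 95% interval -0.41 to 2.53, adjusted p = 0.229), and without tumour 1 it was 1.72 (adjusted p = 0.00268). 1430533_a_at followed the same order, with 191, 717, 1263, 1504 and 2396 in tumours 1 to 5, against 326, 984, 354 and 374 in muscles 1 to 4. Tumours differed from muscle by 0.99 on the log2 scale (SE 0.62, 95% interval -0.37 to 2.35, adjusted p = 0.224), or 1.53 without tumour 1 (adjusted p = 0.0134). Against the muscle mean, tumour 1 stood at 2.44-fold by 1420811_a_at, at 0.375-fold by 1430533_a_at and at 0.306-fold by 1450008_a_at. With the Actb ratio as a covariate, the log2 fold changes of the dimmer pair were 2.13 (adjusted p = 0.00921) and 2.35 (adjusted p = 0.00607) in that order. Tumour 1 is also the array with the highest Actb ratio, while tumour 4, with the next highest, stood at 4.09-fold by 1450008_a_at; the part of RNA integrity in these readings was not tested further.

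**Figure D2:**
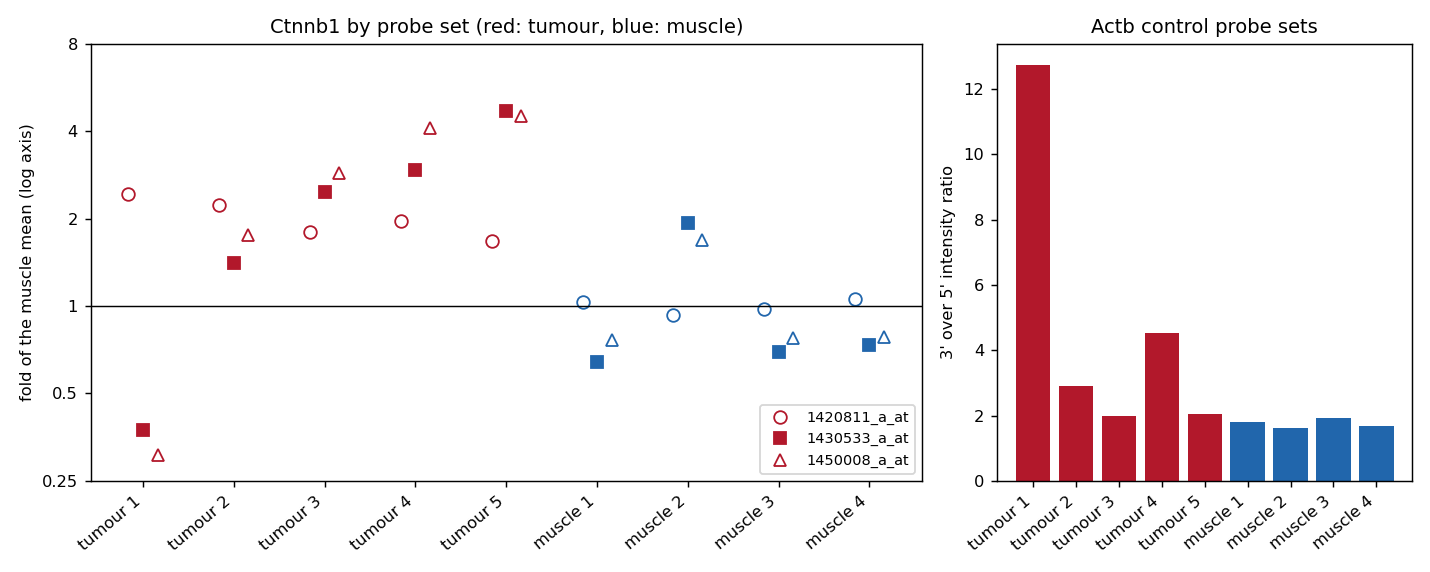
Left, each array's Ctnnb1 level as a fold of the muscle mean (log axis) for its 3 probe sets, tumours in red and muscles in blue; right, the 3-prime over 5-prime intensity ratio of the Actb control probe sets on the same arrays. In tumour 1 the probe sets part by direction, 2.44-fold against 0.375-fold and 0.306-fold, and its Actb ratio is 12.7.

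Among the DNA-binding partners, Lef1 rose. LEF1 is a factor of embryonic and progenitor tissues, which binds the same sites as the TCF proteins. 1454734_at read 1003, 1309, 1242, 976 and 854 in tumours 1 to 5, against 92.4, 132, 57.9 and 12.9 in muscles 1 to 4. The tumours were close to each other and well above every muscle, and of the muscles only muscle 2 reached the floor. The log2 fold change was 3.82 (SE 0.41, 95% interval 2.92 to 4.72, adjusted p = 4.4e-05), a size that depends on muscle signals mostly not above background. 1421299_a_at read 827, 248, 101, 112 and 128 in tumours 1 to 5, against 4.52 to 20.6 in muscle, below the floor on every muscle array. Tumour 1 stood far above the rest there, which the brighter probe set did not show. Against the floor, it was at least 1.83-fold higher in tumours (means 283 in tumours and 12.5 in muscle). Its test is not given as support, since it entered the fit through the tumours alone.

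Tcf7l1, which encodes a factor known mainly as a repressor in stem cells, rose by both of its probe sets. 1436207_at read 1253, 1479, 1468, 833 and 696 in tumours 1 to 5, against 122, 76.7, 255 and 109 in muscles 1 to 4. Its log2 fold change was 2.95 (SE 0.35, 95% interval 2.19 to 3.70, adjusted p = 7.3e-05). The groups did not overlap, and the 3 tumours labelled CC lay above the pair labelled SSM. 1450117_at gave the same split more widely, with 3585, 3647, 1559.7, 773 and 697 in tumours 1 to 5, against 323, 243, 181 and 370.4 in muscles 1 to 4. Its log2 fold change came to 2.52 (SE 0.50, 95% interval 1.41 to 3.62, adjusted p = 0.00211), and the highest tumour was 5.23 times the lowest.

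Tcf7l2, the partner of beta-catenin in intestinal and many other adult cells, was called by 2 of its 3 probe sets, and each call was lost under another setting. 1429428_at, the brightest on average, read 252, 346, 202, 321 and 241 in tumours 1 to 5, against 99.8, 140.0, 169 and 125 in muscles 1 to 4. Tumours and muscles did not overlap, and the log2 fold change was 0.94 (SE 0.26, 95% interval 0.37 to 1.52, adjusted p = 0.0134). It missed the threshold on unscaled values (0.82, adjusted p = 0.0537), with array medians set equal (0.76, adjusted p = 0.0618), after quantile normalization (0.73, adjusted p = 0.0589) with the Actb ratio as a covariate (0.88, adjusted p = 0.0583) and without tumours 1 and 4 (0.89, adjusted p = 0.0509). 1426639_a_at read 279, 216, 294, 90.9 and 96.5 in tumours 1 to 5, against 35.3, 34.5, 99.3 and 38.9 in muscles 1 to 4. It was called (log2 fold change 1.59, SE 0.45, adjusted p = 0.0152), but 2 tumours and 3 muscles were below the floor, tumours 4 and 5 lay under muscle 3, and the call ended with the Actb ratio as a covariate (adjusted p = 0.0814). 1425229_a_at, at 61.5 to 315 in tumours and 51.6 to 228 in muscle, was not called (log2 fold change 0.22, 95% interval -0.86 to 1.30, adjusted p = 0.747).

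Axin2, which encodes a scaffold of the destruction complex and is among the most widely used readouts of beta-catenin activity, rose evenly. 1436845_at read 1218, 1124, 1271, 1475 and 1480.2 in tumours 1 to 5, against 346, 365, 308 and 291 in muscles 1 to 4. Tumours and muscles formed separate narrow bands, with the highest tumour 1.32 times the lowest and the highest muscle 1.26 times the lowest. Its log2 fold change came to 1.95 (SE 0.18, 95% interval 1.55 to 2.35, adjusted p = 1.98e-05), with means of 1314 ± 159 in the 5 tumours and 328 ± 34.1 in the 4 muscles (SD). The other probe set, 1421341_at, was at 56.1 to 137 in tumours and 7.80 to 53.2 in muscle, below the floor on 3 tumours and on all muscles, and was not tested.

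Lgr5, a stem cell receptor for R-spondins that strengthens Wnt signals, rose by its brighter probe set. 1450988_at read 2070.2, 1208, 3820.4, 1866 and 1675 in tumours 1 to 5, against 176, 125, 163 and 151 in muscles 1 to 4. Tumour 3 was the highest, and the lowest tumour was still well above the highest muscle. On the log2 scale the rise was 3.56 (SE 0.30, 95% interval 2.90 to 4.21, adjusted p = 1.13e-05). 1444519_at reached the floor in tumour 1 alone, at 305, was at 10.6 to 102 in the other tumours and at 9.12 to 67.9 in muscle, and was not tested.

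Nkd1, which encodes an inhibitor that binds the Dishevelled proteins of the pathway, gave no single answer across its 4 probe sets. 1429506_at read 919.9, 782, 463, 158 and 77.3 in tumours 1 to 5, against 157, 164, 133 and 158 in muscles 1 to 4. The tumours labelled CC were well above muscle, tumour 4 was level with it and tumour 5 lay below it and below the floor. The log2 fold change was 1.08 (SE 0.61, 95% interval -0.25 to 2.42, adjusted p = 0.175), or 1.57 without tumour 5 (adjusted p = 0.0204). 1417278_a_at, at 124 to 522 in tumours and 69.8 to 181 in muscle, was not called either (0.85, SE 0.41, adjusted p = 0.121), or 1.08 without tumour 4 (adjusted p = 0.0494). With ribosomal protein and proteasome genes held level both were called, at 1.47 (adjusted p = 0.0444) and 1.24 (adjusted p = 0.0250) in that order. 1429507_at was called, with 119, 192, 231, 187 and 129 in tumours 1 to 5, against 126, 49.6, 19.9 and 47.4 in muscles 1 to 4. Its log2 fold change was 1.43 (SE 0.42, adjusted p = 0.018), which missed the threshold without muscle 3 (1.12, adjusted p = 0.0538). It sat near the floor, and tumour 1 lay under muscle 1. 1440446_at, at 112 to 335 in tumours and 120.0 to 183 in muscle, was not called (0.40, 95% interval -0.37 to 1.17, adjusted p = 0.385).

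Tnfrsf19, a receptor of the TNF family also known as Troy, whose promoter beta-catenin can activate, rose by all 3 of its probe sets. 1448147_at read 14012, 28665, 5093, 9898 and 12321 in tumours 1 to 5, against 224, 595, 360.4 and 243 in muscles 1 to 4. The tumours differed 5.63-fold among themselves, tumour 2 being the highest and tumour 3 the lowest. On the log2 scale the rise was 5.12 (SE 0.44, 95% interval 4.15 to 6.09, adjusted p = 1.26e-05). 1425212_a_at kept the extremes, with 1159, 1919.7, 472, 876 and 1063 in tumours 1 to 5, against 194, 219, 187 and 157 in muscles 1 to 4, and rose by 2.31 on the log2 scale (SE 0.34, adjusted p = 0.000303). 1415921_a_at, at 151 to 1057 in tumours and 54.2 to 133 in muscle, rose by 1.98 on the log2 scale (SE 0.50, adjusted p = 0.0082). It placed tumour 1 lowest, and 2 muscles reached the floor. All 3 probe sets separated the groups, but the sizes they gave differed widely.

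**Figure D3:**
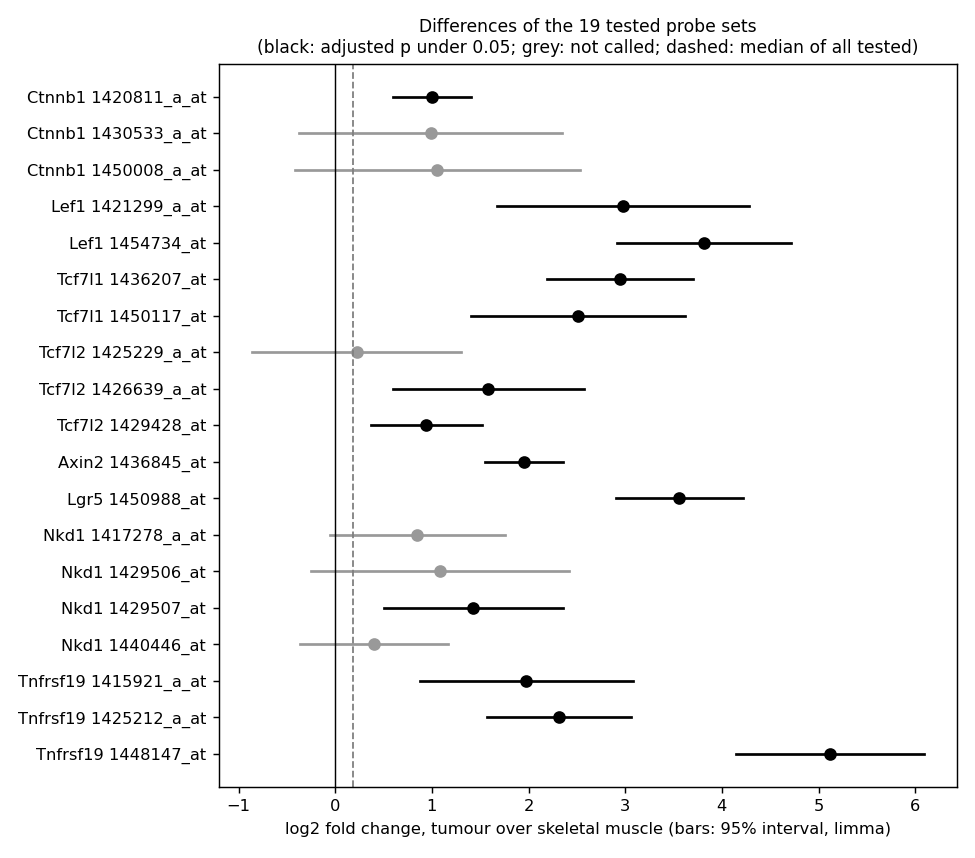
Log2 fold change of the 19 tested probe sets, tumour over skeletal muscle, with its 95% interval from limma; black marks the 13 called, grey the 6 not called, and the dashed line the median of all probe sets tested. Tnfrsf19 1448147_at lies farthest right at 5.12, and the intervals of the grey probe sets all include 0; Lef1 1421299_a_at stands at its fitted value although every muscle was below the floor.

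**Figure D4:**
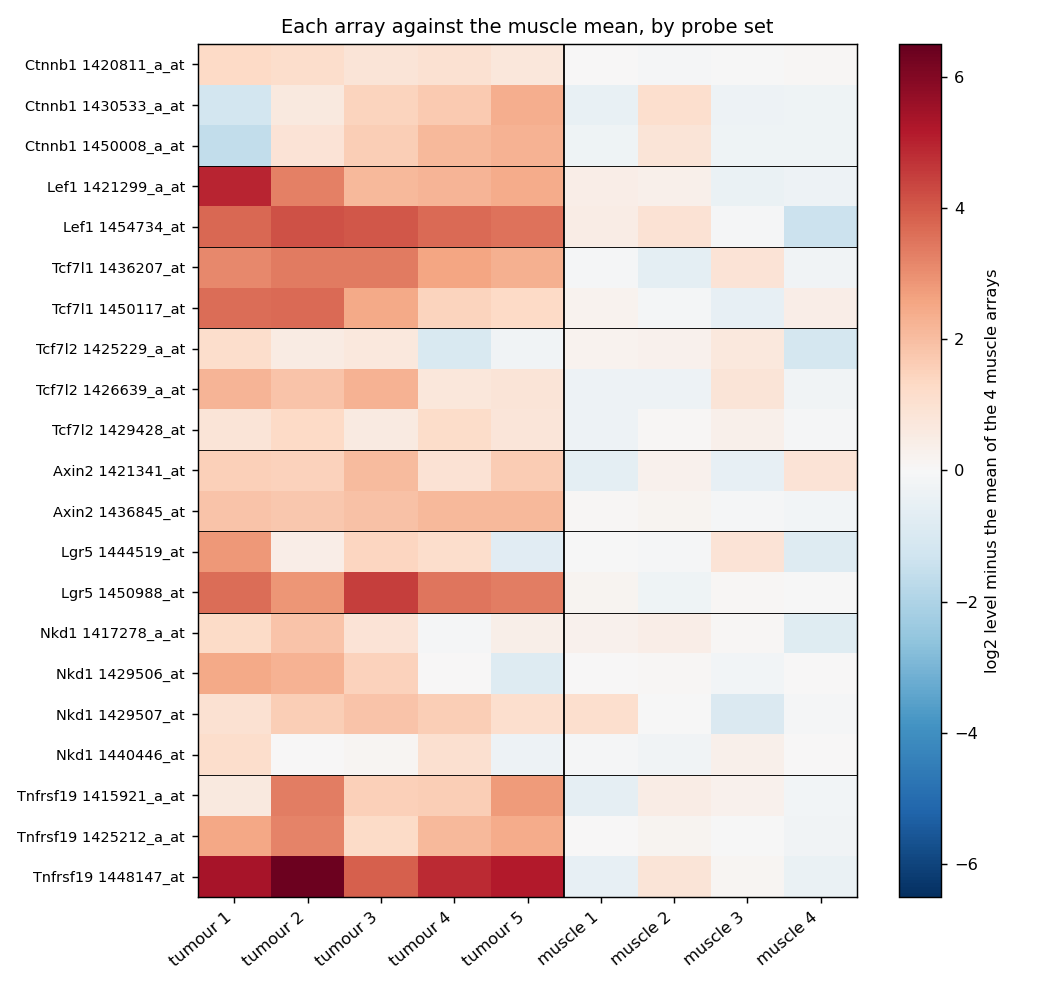
Log2 level of each array minus the mean of the 4 muscle arrays, for all 21 probe sets, tumours left of muscles. Axin2 1436845_at and Lef1 1454734_at are even across tumours, while Nkd1 1429506_at and Tcf7l1 1450117_at fade in tumours 4 and 5, labelled SSM.

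The genes closest in pattern were found by the root mean square distance between log2 levels over the 9 arrays, each gene centred on its own mean, among the other 10649 genes. For Lef1 they were Plk4, a kinase of centriole duplication (distance 0.40), Foxd2, a forkhead transcription factor (0.40), and Fam241b (0.41). For Axin2 they were Cfap20, a protein of cilia (0.14), Rcan3, a calcineurin regulator (0.16), and Tnfaip6, a secreted hyaluronan-binding protein (0.17). For Lgr5 they were Brca1, a DNA repair gene (0.33), Ccnd1, cyclin D1 (0.40), and Lmo3, a LIM-domain protein (0.41). Another Brca1 probe set ran the other way and was not called (log2 fold change -0.67, adjusted p = 0.146). For Ctnnb1 they were Zfr, an RNA-binding zinc finger protein (0.10), Fip1l1, a factor of mRNA polyadenylation (0.10), and Cdc27, a subunit of the anaphase-promoting complex (0.11). The distances mostly carry the difference between tumour and muscle that these genes share. Muscle means lay under the floor for Lef1 (73.8), Plk4 (77.8), Brca1 (22.6) and Lmo3 (16.5). Their distances thus rest partly on signals not above background.

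The rest of the pathway was counted per gene, from lists chosen by role. Among all 10650 genes tested, 30.1% were higher and 17.9% lower. Of 18 Wnt ligand genes with a probe set, 9 were tested. The brightest probe sets of the others, among them Wnt1, Wnt3 and Wnt3a, reached the floor on fewer than 4 arrays. Of the 9 tested, 4 were higher (44.4%) and 1 lower (11.1%), with a median log2 fold change of 0.33. With single arrays left out, which in some cases also changed the genes tested, that median was 0.10 without tumour 3, 1.11 without tumour 4 or tumour 5, 0.56 without muscle 1, 0.87 without muscle 2 and 0.82 without muscle 3, and the lower count was 0 without muscle 3 or muscle 4. Wnt5a, often a ligand of the branch without beta-catenin, rose by 4.07 on the log2 scale, with 5648 ± 1206 in the 5 tumours and 333 ± 121 in the 4 muscles (SD). Wnt6, at or above the floor on 2 muscles, rose by 2.33 and, with 1 such muscle, Wnt16 by 2.15 (adjusted p = 0.00783, or 0.0608 with the Actb ratio as a covariate). Wnt4 fell by 0.93 (adjusted p = 0.0165), a call lost without muscle 3 or muscle 4 (adjusted p = 0.0503 and 0.0596), with its probe sets averaged (adjusted p = 0.261) and with ribosomal protein and proteasome genes held level (adjusted p = 0.120).

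Of 14 genes tested in the receptor list, 10 were higher and 2 lower, with a median of 0.95. The list also holds Znrf3, which is not a receptor but a ligase that removes Frizzled receptors. It rose by 0.68 (adjusted p = 0.0206) and is among the 10. The count of higher genes was 5 on unscaled values, with array medians set equal, after quantile normalization and without muscle 3, and 6 without muscle 1. Fzd1, a Frizzled receptor, rose by 3.73, Ror2, a receptor of Wnt5a, by 3.37 against muscle signals of which only 1 reached the floor, and Lgr6, a relative of Lgr5, by 3.33. Fzd9 averaged 95.6 ± 45.2 in the 5 tumours and 586 ± 54.8 in the 4 muscles (SD) and fell by 2.54, with only 1 tumour at or above the floor (adjusted p = 0.000136). The lower count was 1 without tumour 3, tumour 5, muscle 2 or muscle 3. Fzd4 fell by 1.28 (adjusted p = 0.0321), a call lost without tumours 3, 4 or 5 or muscles 2 or 3 taken singly (adjusted p from 0.0638 to 0.0997) and with ribosomal protein and proteasome genes held level (0.0863).

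Of 11 antagonist genes tested, 3 were higher and 2 lower, with a median of 0.53. These shares, 27.3% and 18.2%, were near those of all genes tested, 30.1% and 17.9%. Without tumour 5 the median was 0.33, the higher count was 2 without any 1 of tumours 1, 2, 4 and 5 or muscles 1, 3 and 4, and the lower count was 0 without muscle 1, 1 without tumour 2 or muscle 4 and 3 without tumour 4. Sfrp2, a secreted decoy of Wnt ligands, rose by 2.99 and Dkk3 by 2.25, or by 1.32 without tumour 4 and 1.56 without tumour 5, and only 2 muscles reached the floor for Dkk3. Sostdc1 rose by 1.02 (adjusted p = 0.0336), but lost the call under 14 of 23 alternatives, among them leaving out any single array except tumour 3 (adjusted p from 0.0509 to 0.0848). Sfrp5 and Kremen1, a receptor of the DKK proteins, had log2 fold changes of -1.15 (adjusted p = 0.0307) and -0.93 (adjusted p = 0.0211). Sfrp5 lost the call without tumour 2 or muscles 1, 3 or 4 (adjusted p from 0.0549 to 0.0923) and Kremen1 without muscle 1 (adjusted p = 0.0737). Both lost it with ribosomal protein and proteasome genes held level (adjusted p = 0.106 and 0.133) and with their probe sets averaged (adjusted p = 0.217 and 0.563).

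Of 13 genes in the list of signal relay and the destruction complex, 2 were higher, 2 lower and 9 not called, with a median of 0.42. The list also holds Wls and Porcn, which act on Wnt ligands in the cells that make them, and Wls is 1 of the 2 higher genes. The higher genes numbered 7 with ribosomal protein and proteasome genes held level, 4 without tumour 1 and 1 with probe sets averaged. The median was 0.26 without tumour 3, and 1 gene was lower without tumour 2, tumour 4, muscle 2, muscle 3 or muscle 4. Wls, which carries Wnt ligands to the cell surface, rose by 2.16 (adjusted p = 0.00516) and Axin1, the constitutive relative of Axin2, by 0.91 (adjusted p = 0.0023, or 0.269 with its probe sets averaged). Dvl1, a Dishevelled gene, fell by 1.40 (adjusted p = 0.00562). Csnk1d, a casein kinase, fell by 1.07 (adjusted p = 0.0347), a call lost without tumours 2 or 4 or muscles 2, 3 or 4 taken singly (adjusted p from 0.0647 to 0.0901), after quantile normalization (0.115), with ribosomal protein and proteasome genes held level (0.139) and with its probe sets averaged (0.259). Apc and Gsk3b, core parts of the complex, were not called, at 0.42 and 0.17.

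Of 14 nuclear partners tested, 8 were higher and 1 lower, with a median of 0.91, and 5 were higher with the Actb ratio as a covariate. Tle3, a Groucho corepressor that binds LEF/TCF factors, averaged 3221 ± 1133 in the 5 tumours and 328 ± 123 in the 4 muscles (SD). It rose by 3.24, Ctbp2, another corepressor, by 2.09 and Tle2 by 1.77. Sox17, an endothelial and endodermal factor that can oppose beta-catenin, fell by 1.32 (adjusted p = 0.0227), a call lost without tumour 3 or muscles 1, 3 or 4 (adjusted p from 0.0515 to 0.0649). Of 11 endothelial marker genes, 6 were lower and 0 higher, and their summed level was 2984 to 4879 in tumours and 5676 to 7355 in muscle; the part of this in the Sox17 value was not tested.

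Among 27 genes listed as beta-catenin targets in 1 tissue or another, 18 were higher, 2 lower and 7 not called, with a median of 1.67. Of these, 4 are counted in other lists too: Lgr6 and Znrf3 (receptor list, both higher), Notum (an antagonist, not called) and Birc5 (a proliferation gene, higher). Among the remaining 23, 15 were higher, 2 lower and 6 not called. Both counts of higher genes include Ephb3 and Nrcam, which entered the fit through the tumours alone. Nrcam, below the floor on all muscles, was at least 2.97-fold higher. The transcription factor Twist1 rose by 4.21, Id2, an inhibitor of differentiation factors, by 3.75, and Ephb3, a receptor of intestinal crypts, was at least 10.5-fold higher, below the floor on all muscles. Jun, a transcription factor, fell by 1.63 (adjusted p = 0.00145) and Edn1, endothelin 1, fell by 1.57 (adjusted p = 0.0146), the last against tumour signals of which only 1 reached the floor. Myc, a classical target of the intestine, was not called, at 0.35. The catenins and plakophilins of cell junctions had 3 of 7 genes higher and 0 lower, with a median of 0.76, and 5 were higher with ribosomal protein and proteasome genes held level and 1 with only probe sets ending in _at. Ctnna1, alpha-catenin, which ties beta-catenin to actin, rose by 1.29 (adjusted p = 0.000271). Pkp2 rose by 1.35 (adjusted p = 0.000583, or 0.328 with its probe sets averaged and 0.485 with only probe sets ending in _at). Ctnnal1 rose by 0.69 (adjusted p = 0.0266), a call kept under 15 of 24 alternatives. It was lost without tumour 4 or muscles 1, 3 or 4 taken singly (adjusted p from 0.0518 to 0.0858). Other settings that lost it included quantile normalization (adjusted p = 0.174) and only probe sets ending in _at (0.20, adjusted p = 0.627). Jup, plakoglobin, the close relative of beta-catenin, was not called, at -0.58.

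**Figure D5:**
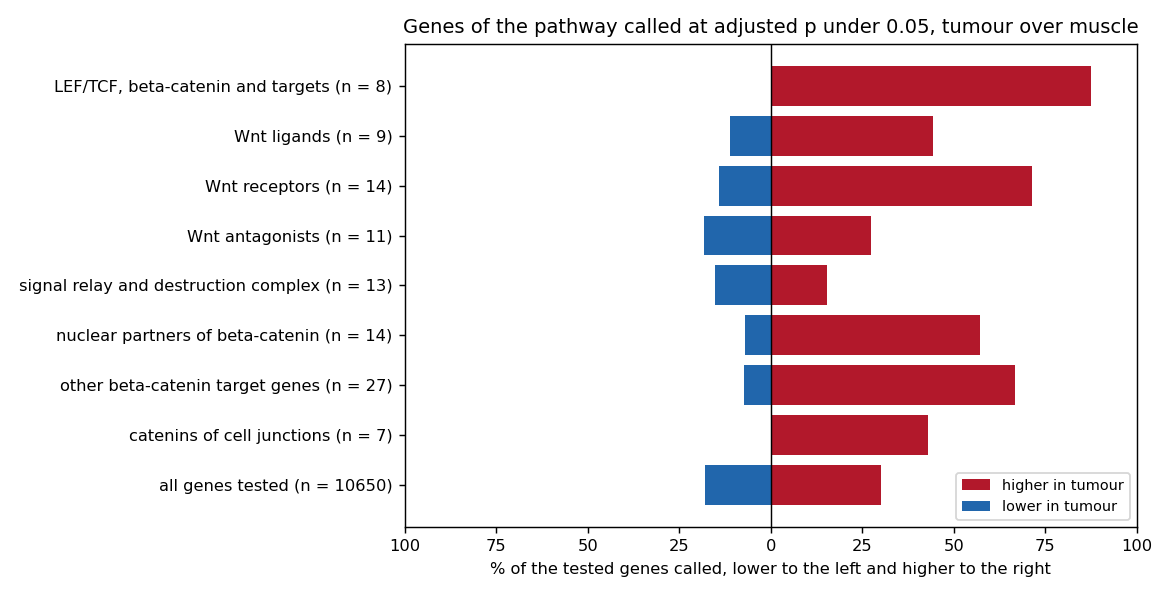
Share of the tested genes of each list called higher (right, red) or lower (left, blue) in tumours at an adjusted p under 0.05, with the number tested in brackets and all genes tested at the bottom. The target and receptor lists reach 66.7% and 71.4% higher, where all genes reach 30.1%. The list of signal relay and the destruction complex, which includes Wls and Porcn, reaches 15.4%. In the receptor list, 5 of 14 were higher on unscaled values, with array medians set equal, or after quantile normalization. Of the target genes, 3 are also in the receptor or antagonist lists. The target share includes Ephb3 and Nrcam, which were below the floor on every muscle.

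Lef1 is also a gene of T cells and of hair follicles, and Lgr5 one of hair follicles, so markers of those cells are given beside them. Of 12 T cell genes, 2 to 4 reached the floor in tumours and 2 to 4 in muscle, with summed levels of 941 to 1391 in tumours and 1312 to 1721 in muscle. Zap70 reached the floor on all 9 arrays and Cd247 on 2 of each group. Cd28 reached it on every muscle and no tumour and was at least 3.89-fold lower in tumours, the 1 lower call among 3 genes tested. Cd3e and Lat reached it in 2 tumours and no muscle, Cd3g in 1 tumour and no muscle, Cd5 and Cd8a in 2 tumours and 1 muscle, Cd2 in 1 muscle alone, and Cd3d, Cd4 and Cd8b1 on no array. Of 8 keratinocyte and hair follicle genes, 1 to 3 reached the floor in tumours and 2 to 3 in muscle, with summed levels of 504 to 1253 in tumours and 818 to 1159 in muscle, and 0 of 2 tested were called. Lor reached the floor on all 9 arrays, Trp63 in 1 tumour and every muscle, and Krt71 in 2 tumours and 1 muscle. Sfn read 351 in tumour 4 and 239 in tumour 5, and 7.63 to 70.2 in the other tumours, against 17.0 to 57.1 in muscle. Krt1, Krt17, Krt25 and Ivl reached it on no array. Macrophage genes summed to 5513 to 12976 in tumours and 4235 to 4655 in muscle, with 2 of 5 tested higher. All 11 proliferation genes were higher in tumours, summing to 16554 to 32115 in tumours and 2462 to 5897 in muscle. Among them, Bub1b was below the floor on every muscle and at least 5.30-fold higher. The part of T cells, keratinocytes, macrophages and proliferating cells in the levels of beta-catenin, the LEF/TCF factors and their targets was not tested.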

How the data were processed

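Total RNA of 5 tumours and 4 skeletal muscles was measured on Affymetrix arrays. The deposited intensity values were made with MAS5, per the submitters' processing notes. Version, scaling target and detection calls are not given in the sources used here. The values are probe set signals on a linear scale, and precision is limited by how many arrays there were. Of 30508 probe sets, 7 controls, 496 with several gene symbols and 4424 with none were left out, leaving 25581 for 14440 genes. Symbols came from the platform annotation, and promoters from RefSeq (GRCm38.p6).

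The 2% trimmed means of the arrays differed 1.42-fold, so each array was scaled to their mean. Levels were log2(scaled intensity + 16). Each probe set reaching the 40th percentile on at least 4 arrays was fitted in R 4.3.3 by the functions lmFit and eBayes (with trend) of limma 3.58.1, and two-sided p-values were Benjamini-Hochberg adjusted over all 17433 tested. Lists were counted in a second fit of 10650 genes, taking the brightest probe set of each by mean log2 level. "At least" marks a fold against the floor, where every muscle was below it, or every tumour for a gene lower in tumours. On simulated data (17433 probe sets, 200 changed), 21% of 2-fold and 67% of 4-fold changes were recovered, and 2.22% of calls were false. A far larger share was called in the arrays themselves (25.7% higher and 16.5% lower). The simulated rates therefore may not hold for this comparison.

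The genes followed and the lists were chosen with earlier results of these data known. The rule for other named genes took up to 3 called genes per list and direction with the largest change, and the 3 nearest in pattern to Lef1, Axin2, Lgr5 and Ctnnb1; Apc, Gsk3b, Myc and Jup were added after their values were seen. Alternatives were 4 scalings, pseudocounts of 1 and 64, 2 filters, 2 eBayes settings, the Actb ratio as a covariate, the CC17-A and CC17-B tumours averaged, each array left out, 2 choices of probe set and, added after seeing the data, leaving out tumours 1 and 4.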

Additional observations from a re-analysis of the deposited data

Results flagged for a closer look

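In 3 of 42 groups of 4 or 5 arrays (21 probe sets in tumour and in muscle), 1 array stood far from the others by Dixon's ratio on log2 levels, a test that chance alone meets in about 1 of 20 groups. Intercostal muscle 2 was the highest of the muscles for Ctnnb1 1450008_a_at, at 2262 where the others were 1023 to 1049. The same array was the highest for Ctnnb1 1430533_a_at, at 984 where the others were 326 to 374. By 1420811_a_at it was the lowest muscle, at 9212. Forelimb muscle 3 was the highest for Tcf7l2 1426639_a_at, at 99.3 where the others were 34.5 to 38.9, and it lay just above its floor of 97.0.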

How the results depend on the processing

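Of the 19 probe sets tested, 17 kept their direction under all of the 22 alternatives in which they were tested. Of the 13 called higher, 10 kept the call, and the 3 others were Tcf7l2 1426639_a_at, Tcf7l2 1429428_at and Nkd1 1429507_at. The 10 include Lef1 1421299_a_at, which entered the fit through the tumours alone and was tested under only 16 alternatives. The count of the 13 probe sets called higher was 8 when probe sets had to reach the 60th percentile, where only 10 were tested, and 11 to 13 with single arrays left out. The direction of Tcf7l2 1425229_a_at, not called, turned with the Actb ratio as a covariate (-0.058), and with single arrays left out it ran from -0.16 to 0.52. That of Nkd1 1440446_at, not called, turned with the same covariate (-0.15) and without tumours 1 and 4 (-0.054). Brca1 turned where another probe set represented it, with a pseudocount of 1 (-0.77), with the CC17 pair averaged (-0.68) and without tumours 1 and 4 (-0.91), and ran from -0.68 to 3.73 with single arrays left out. Lower calls over all probe sets were 2885 as reported and 1657 with ribosomal protein and proteasome genes held level, and over genes 1910 and 1100; the cause was not tested. No paired analysis was possible because the labels number no tumour to match a muscle, and the CC17 pair could not be used as a random block because 1 pair gives limma no estimate of its correlation. Signals near an array's floor limit Lef1 1421299_a_at, the second probe sets of Axin2 and Lgr5, and most probe sets of Nkd1 and Tcf7l2.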
